A study of Homo sapiens with 12 samples.

Results

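Of 10 symbols of mitochondrially encoded genes, written without the MT- prefix, 2 had a row in the count table of 46863 gene symbols. These were RNR1, the gene of the small (12S) rRNA of the mitochondrial ribosome, and RNR2, the gene of the large (16S) rRNA. The other 8 symbols (ND1, ND2, ND4, ND5, COX1, COX2, ATP6 and CYTB), which name protein-coding genes of the respiratory chain, were not analysed here. Their neighbours in the mitochondrial genome were therefore described with them, namely the rows of all 22 mitochondrial tRNA genes, of which 18 had enough counts to be tested. The table also held rows for 10 nuclear copies of RNR2 (MTRNR2L genes), of which 7 were tested.

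RNA was sequenced from SU-DHL-4, an established cell line of germinal centre B cell type diffuse large B-cell lymphoma (DLBCL) with the genotype label wt. All cells were exposed for 72 h. They received DMSO as the vehicle, 1 µM entospletinib (Ento), an inhibitor of the kinase SYK, 0.01 µM AZD5153 (AZD), a bivalent inhibitor of BET proteins, or both agents at these concentrations (Ento+AZD). Each of the 4 groups comprised 3 libraries, described in the series as biological replicates and numbered 1 to 3 in every group, of 1 cell line, 1 time point and 1 concentration per agent.

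Total counts per library lay between 18121993 and 24675830, so that 1 count was worth 0.0393 to 0.0564 CPM, the count scaled to library size after TMM normalization. The labelled cell type was checked with marker genes. All 7 markers of germinal centre B-cell lymphoma were expressed, with a summed level of 3982 to 7122 CPM, while those of T cells reached at most 2.18 CPM and those of monocytes at most 0.481 CPM. Of 4 stromal markers 3 had at most 3 counts in every library, and DCN accounted for nearly all of the summed 37.0 to 125.6 CPM. The 3 plasma cell markers summed to between 6.31 and 19.0 CPM.

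The human mitochondrial genome is a small circular molecule that is transcribed on both strands into long precursor RNAs. In these precursors most mRNAs and both rRNAs are separated by tRNAs, and excision of the tRNAs releases the RNAs between them. RNR1 and RNR2 form the RNA core of the small and the large subunit of the mitochondrial ribosome, which translates the mRNAs encoded beside them. The polymerase POLRMT, with TFAM and TFB2M, transcribes this genome. LRPPRC and SLIRP stabilise its mRNAs, and MTPAP adds their poly(A) tails. In the reference chrM has 16569 bases and 37 genes, of which 24 had a row in the table, namely the 2 rRNA and the 22 tRNA genes.

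RNR1 lies at chrM:648-1601 and RNR2 at chrM:1671-3229 (GRCh38, GENCODE v44, plus strand), with TRNV, the valine tRNA gene, filling the gap between them. TRNL1, a leucine tRNA gene, starts at the base that follows RNR2. Polyadenylated RNA was enriched before sequencing, and stretches of A inside an RNA can also be bound by oligo(dT). The longest run of A in each rRNA gene is therefore shown in capitals, at chrM:973-1018 for RNR1 and chrM:2437-2483 for RNR2.
RNR1: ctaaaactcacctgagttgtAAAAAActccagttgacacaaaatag
RNR2: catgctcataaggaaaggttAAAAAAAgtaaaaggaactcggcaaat
The run had 6 bases in RNR1 and 7 in RNR2. The genes consisted of A to 33.0% and 35.1%, and of G and C to 45.5% and 42.8%. Whether the A runs had a part in the counts was not tested.

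The tRNA genes are 59 to 75 bases long and the reads 75 bases, so that a read counted on a tRNA row can reach into the RNA beside it. The reads were not marked by strand, as far as the name of the library kit tells, and a processed tRNA, a precursor and a neighbouring RNA cannot be told apart on these rows. The sequences of 3 tRNA genes are shown, since TRNV lay between the rRNA genes and had almost no counts, and TRNL1 and TRND had the largest changes of all tRNA rows. Capitals mark the tRNA gene, with 10 bases of flank on each side (chrM:1592-1680, chrM:3220-3314 and chrM:7508-7595, plus strand).
TRNV: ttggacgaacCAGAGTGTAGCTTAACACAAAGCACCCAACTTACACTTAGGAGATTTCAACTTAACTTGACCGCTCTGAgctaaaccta
TRNL1: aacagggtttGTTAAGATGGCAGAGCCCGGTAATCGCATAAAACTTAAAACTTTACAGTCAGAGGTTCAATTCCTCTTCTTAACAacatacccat
TRND: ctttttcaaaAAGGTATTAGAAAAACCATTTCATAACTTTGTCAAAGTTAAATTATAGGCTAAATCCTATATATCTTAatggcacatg
The first 10 bases shown for TRNV are the last of RNR1, and those shown for TRNL1 are the last of RNR2.

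RNR1 and RNR2 together took 1.82 ± 0.127% of all counts with DMSO, 1.98 ± 0.234% with Ento, 1.92 ± 0.253% with AZD and 2.57 ± 0.262% with Ento+AZD (SD, n = 3 each). Most of this was RNR2, the row that rose after the combined exposure, while RNR1 passed the test in none of the comparisons. The 22 tRNA rows added 0.0666 ± 0.00953% with DMSO and 0.0882 ± 0.0139% with Ento+AZD (SD, n = 3 each). A share of counts also depends on all other RNAs in the library and on the enrichment of polyadenylated RNA before sequencing. For a higher share, causes such as more mitochondria, more mitochondrial RNA per cell and less of other RNA cannot be told apart. Whether the enrichment had a part was not tested.

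RNR2 took 1.62%, 1.83% and 1.55% of the counts in DMSO replicates 1, 2 and 3, and 2.15%, 2.54% and 2.56% in those of Ento+AZD. The lowest Ento+AZD library lay above the highest DMSO library. With Ento the share was 1.65%, 2.09% and 1.79%, and with AZD 1.57%, 2.07% and 1.75%, so that both single agents overlapped the DMSO libraries. Replicate 2 was the highest library of its group with DMSO, with Ento and with AZD. The total behind the RNR2 values was 363500 to 531360 counts per library, and the counting error of the share of both rRNAs was small beside the spread between libraries (1.72% to 1.73% as the exact 95% binomial interval of the DMSO library with the lowest share, for counting error only).

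In the fit of all 12 libraries with treatment group and replicate number as terms, the log2 fold change of RNR2 for Ento+AZD against DMSO was 0.59, with a standard error (SE) of 0.09 and an adjusted p of 2.02e-04, and RNR2 was higher in 3 of 3 replicate-numbered pairs. Unless another tool is named, adjusted p-values come from the quasi-likelihood test of edgeR and were corrected by the Benjamini-Hochberg method over the 16835 genes tested. By the same test 40.0% of these genes were called at an adjusted p under 0.05 in this comparison, 19.2% as higher. The change of RNR2 was thus 1 call in a comparison with many, and it stayed under the fold change of 2 required of DEGs, which 8.32% of the genes passed.

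Ento+AZD exposure also raised RNR2 above each single agent, by a log2 fold change of 0.42 (SE 0.09, adjusted p = 0.00574) against Ento and of 0.43 (SE 0.09, adjusted p = 0.00913) against AZD. Of all genes tested 20.4% and 11.9% were called in these comparisons. Both calls depended on single libraries and on the replicate number in the model. Without Ento+AZD replicate 3 the adjusted p was 0.0516 against Ento and 0.0583 against AZD, and without AZD replicate 1 it was 0.0650 against AZD. The model without the replicate number gave 0.157 and 0.305. It called 206 of the 16835 genes against Ento and 17 against AZD, so that few calls of any gene were left there.

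With the single agents RNR2 did not pass the test. Its log2 fold change was 0.17 with Ento (95% interval −0.02 to 0.37, adjusted p = 0.259) and 0.16 with AZD (95% interval −0.04 to 0.35, adjusted p = 0.231), where 8.32% and 22.2% of the genes were called. Both intervals reach above 0, and these values do not show that the level stayed the same. The interaction of the agents on RNR2, the difference between the combined change and the sum of the single changes, was 0.26 (SE 0.13, adjusted p = 0.520). No gene of the 16835 was called in the interaction (0.00%) by edgeR, and 1652 (9.81%) had an unadjusted p under 0.05.

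RNR1 had 0.152%, 0.134% and 0.174% of the counts in DMSO replicates 1, 2 and 3, and 0.119%, 0.165% and 0.179% with Ento+AZD, so that the DMSO values fell inside the range of the combination. Its log2 fold change for Ento+AZD against DMSO was 0.05 (95% interval −0.18 to 0.28, adjusted p = 0.736). The sign of this small value turned under other settings, to −0.06 without DMSO replicate 2. With AZD the 3 libraries were close together at 0.127%, 0.128% and 0.126%, each below every DMSO library. The log2 fold change of RNR1 with AZD was −0.21 (SE 0.11, 95% interval −0.44 to 0.02), which did not pass the test (adjusted p = 0.180). With Ento the share was 0.123%, 0.144% and 0.158%, with a log2 fold change of −0.08 (SE 0.11, adjusted p = 0.687). For Ento+AZD the log2 fold change of RNR1 was 0.26 against AZD alone (95% interval 0.03 to 0.49, adjusted p = 0.132). Against Ento alone it was 0.13 (95% interval −0.10 to 0.36, adjusted p = 0.416). The interval against AZD lay above 0, but the value did not pass the test after adjustment. The interaction value of RNR1 was 0.34 (SE 0.15), with an unadjusted p of 0.0416 and an adjusted p of 0.497.

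Per 1000 bases of gene, the level of RNR2 with DMSO was 10439 ± 1013 CPM and that of RNR1 1565 ± 185 CPM (SD, n = 3 each). The level of RNR2 per length exceeded that of RNR1 in all 12 libraries, since RNR2 is 1559 and RNR1 954 bases long and the ratio of their counts was at least 8.94. With Ento+AZD the levels were 15678 ± 1429 and 1635 ± 329 CPM per 1000 bases (SD, n = 3 each).

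The ratio of RNR2 to RNR1 counts does not depend on the other genes of a library. It was 10.7, 13.7 and 8.94 with DMSO, 13.4, 14.5 and 11.3 with Ento, 12.3, 16.2 and 14.0 with AZD, and 18.1, 15.4 and 14.3 with Ento+AZD (replicates 1, 2 and 3). Each exposure had a higher ratio than DMSO in 3 of 3 replicate-numbered pairs, and the Ento+AZD libraries lay above all DMSO libraries. The difference from DMSO on the log2 scale was 0.25 ± 0.146 with Ento, 0.36 ± 0.242 with AZD and 0.54 ± 0.319 with Ento+AZD (SD of 3 pair differences). In an exact two-sided permutation test p was 0.3, 0.2 and 0.1 (0.3 each after Benjamini-Hochberg adjustment over the 3 comparisons). With 3 libraries against 3 the smallest possible p is 0.1, so the test could not reach 0.05. It did not use the pairing of the libraries by replicate number.

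**Figure D1:**
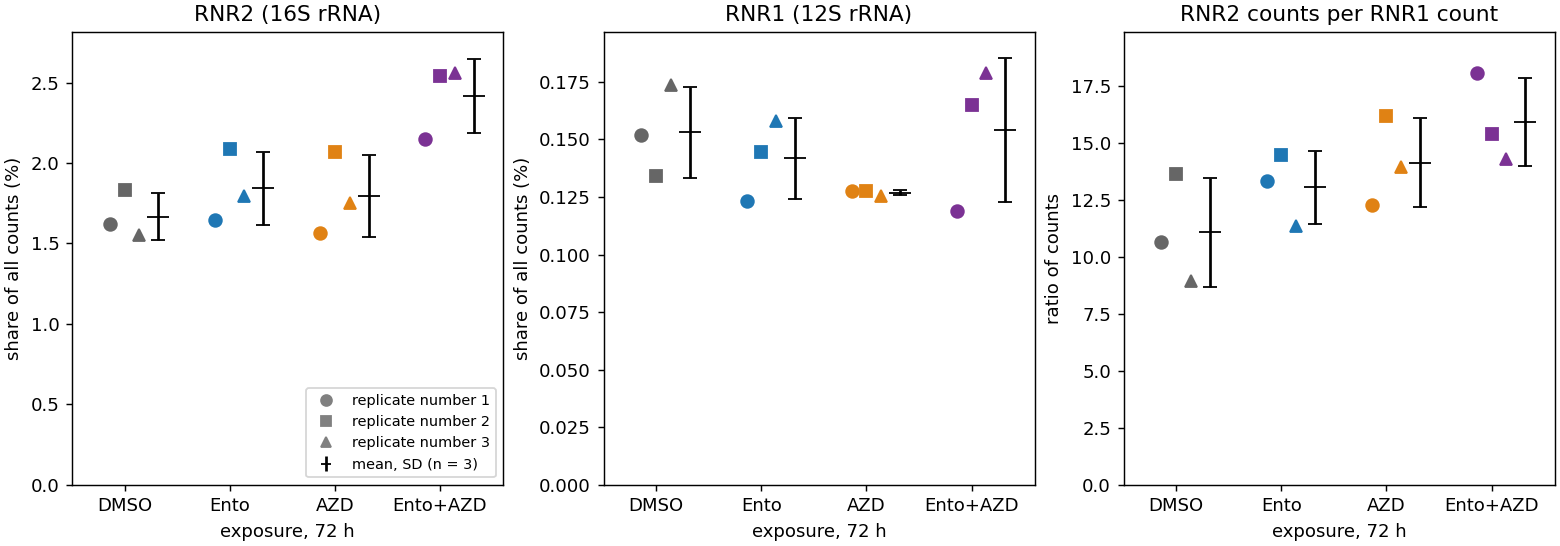
Share of all counts (%) taken by RNR2 and by RNR1, and the number of RNR2 counts per RNR1 count, for each of the 12 libraries by exposure. Symbols mark the replicate number, and the black bar the mean with its SD (n = 3). RNR2 lies between 2.15% and 2.56% with Ento+AZD and between 1.55% and 1.83% with DMSO, while RNR1 overlaps between these groups.

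Across the 12 libraries the log2 CPM of RNR1 and RNR2 had a Pearson correlation of 0.323. Leaving aside the mitochondrial rows and the nuclear copies of RNR2, the genes with the pattern most like that of RNR2 over these libraries were RAPGEFL1 (0.958), CYTH2, an exchange factor for ARF GTPases (0.954), WAC-AS1 (0.952), NAIP, an inflammasome sensor (0.948), and ZNF213-AS1 (0.944). These correlations are descriptions over libraries that share 4 groups and 3 replicate numbers. Their log2 fold changes for Ento+AZD against DMSO ran from 0.29 for CYTH2 to 1.15 for ZNF213-AS1, and are no separate result, since the genes were chosen for following RNR2 in the same libraries.

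Every tRNA row that passed the test against DMSO was higher with the exposure. Of the 18 tested, 10 rose and none fell after Ento+AZD exposure (adjusted p under 0.05), with a median log2 fold change of 0.35, beside 0.01 over all genes and 19.2% of all genes called higher. AZD alone raised 8 of the 18, with a median of 0.27 beside 0.01 over all genes and 9.57% called higher, and none fell. Ento alone raised 1 of the 18, with a median of 0.11 beside 0.01 over all genes and 4.66% called higher, and none fell. The AZD count varied with single libraries, from 1 without AZD replicate 3 to 3 without AZD replicate 2 and 4 without DMSO replicate 2. In the model without the replicate number, 3 tRNA rows (TRNL1, TRND and TRNK) were called for Ento+AZD and none for the single agents. That model called 2398 of the 16835 genes with Ento+AZD, 36 with Ento and 326 with AZD.

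TRNL1, the leucine tRNA gene directly behind RNR2, was the row called with each exposure. Its level was 67.5, 85.0 and 89.5 CPM with DMSO, 92.4, 118.0 and 97.3 CPM with Ento, 98.4, 131.3 and 122.7 CPM with AZD, and 138.6, 155.6 and 141.6 CPM with Ento+AZD. The DMSO libraries lay below all others, and the Ento+AZD libraries above all others. The log2 fold change against DMSO was 0.35 with Ento (adjusted p = 0.0211), 0.54 with AZD (adjusted p = 9.87e-04) and 0.86 with Ento+AZD (SE 0.08 each, adjusted p = 9.91e-06). The call with Ento was lost without DMSO replicate 1 or 2 and without Ento replicate 1 or 2, with adjusted p-values of 0.0672, 0.0641, 0.107 and 0.137. TRNL1 holds the site that the factor MTERF1 binds. MTERF1 mRNA had a log2 fold change of −0.08 with Ento+AZD (SE 0.08, adjusted p = 0.450).

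TRND, the aspartate tRNA gene, had the largest change and few counts. It was counted 38, 51 and 63 times with DMSO, 56, 97 and 66 times with Ento, 42, 114 and 80 times with AZD, and 130, 160 and 102 times with Ento+AZD (replicates 1, 2 and 3). All Ento+AZD libraries lay above all DMSO and all Ento libraries, whereas 1 AZD library reached into their range. Its log2 fold change for Ento+AZD against DMSO was 1.67 (SE 0.24, adjusted p = 1.33e-04), and among the rRNA and tRNA rows TRND alone exceeded the fold change of 2 required of DEGs. With AZD it was 0.81 (SE 0.25, adjusted p = 0.0343), a call lost without DMSO replicate 1 or 2 and without AZD replicate 2 or 3. With Ento it was 0.70 (SE 0.26) and did not pass the test (adjusted p = 0.104).

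The other tRNA rows that rose after Ento+AZD exposure were TRNC (log2 fold change 0.68), TRNS1 (0.64), TRNT (0.63), TRNN (0.61), TRNY (0.58), TRNK (0.46), TRNP (0.35) and TRNE (0.35). TRNN, the asparagine tRNA gene, had 36.6, 50.4 and 51.2 CPM with DMSO and 60.5, 82.0 and 68.6 CPM with Ento+AZD, without overlap. TRNE, the glutamate tRNA gene, had the most counts of the tRNA rows, with 154.3, 205.6 and 161.9 CPM with DMSO and 178.3, 271.3 and 220.6 CPM with Ento+AZD. TRNE, TRNP and TRNS1 overlapped between the groups but were higher in 3 of 3 replicate-numbered pairs. Of the 10 rows called in this comparison, TRNL1, TRND, TRNN, TRNC, TRNY, TRNK and TRNT had no overlap between the groups. TRNH had none either and was not called (adjusted p = 0.184). How many of all genes had no overlap was not counted, so no background stands beside these rows. The rows not called ranged from TRNM, the methionine tRNA gene (−0.29, adjusted p = 0.202), over TRNR (−0.26), TRNI (−0.02), TRNF (0.01), TRNG (0.08) and TRNL2 (0.10) to TRNW (0.19) and TRNH (0.24).

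The rows were also counted by the strand of their gene. All 6 tested tRNA genes on the minus strand (TRNN, TRNC, TRNY, TRNS1, TRNE and TRNP) were called higher with Ento+AZD, with a median log2 fold change of 0.60. Of the 12 tested on the plus strand, 4 were called higher, with a median of 0.14. Of all genes 19.2% were called higher in this comparison. With AZD the numbers were 5 of 6 (median 0.37) and 3 of 12 (median 0.22), beside 9.57% of all genes. With Ento they were 0 of 6 (median 0.11) and 1 of 12 (median 0.06), beside 4.66% of all genes. None of these calls on the minus strand held once the replicate number was left out of the model. That model called 2398 of the 16835 genes for Ento+AZD against DMSO and 326 for AZD. In it the adjusted p of the minus-strand rows for Ento+AZD ran from 0.0574 for TRNN to 0.284 for TRNE. The 3 rows still called were all on the plus strand. With AZD each of the 5 calls on the minus strand was lost without AZD replicate 3, and TRNL1 on the plus strand was the 1 row left. The difference between the strands was not tested, and since reads were not marked by strand the reads on these rows may come from RNA of either strand. Neighbouring rows such as TRNN, TRNC and TRNY lie close enough for RNA fragments to span them, and do not count as separate observations.

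**Figure D2:**
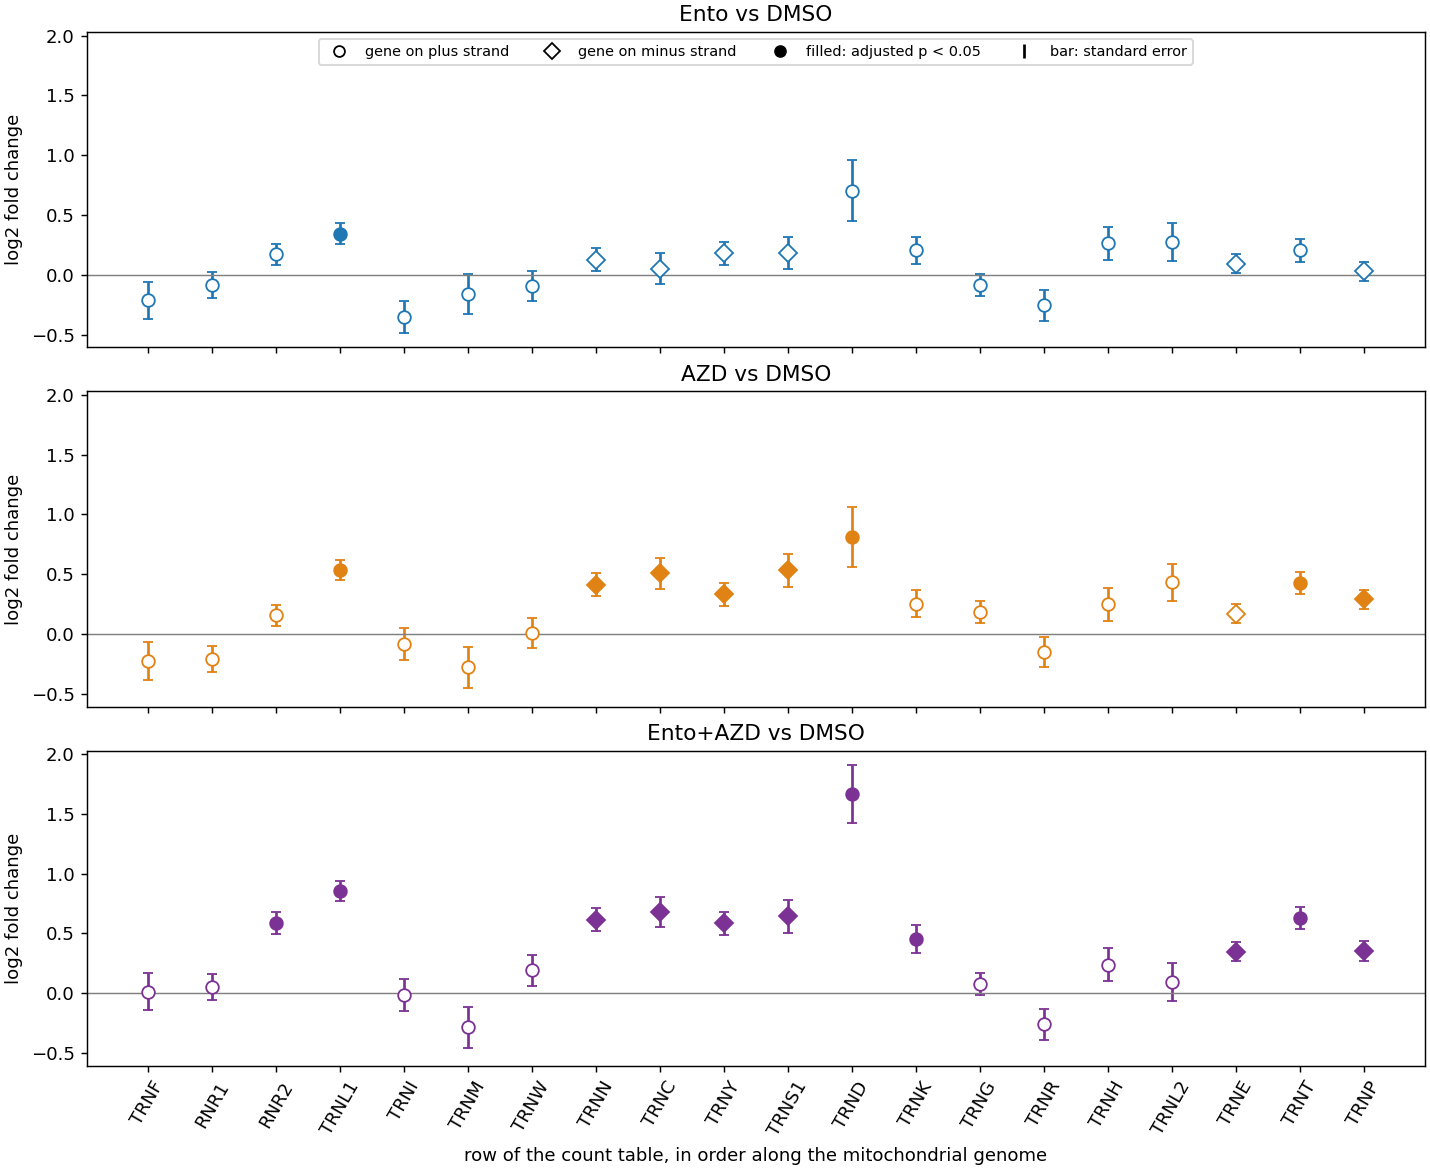
Log2 fold change against DMSO (y axis) with its standard error for RNR1, RNR2 and the 18 tested tRNA rows, in their order along the mitochondrial genome (x axis), in 1 panel per exposure. Circles stand for genes on the plus strand, diamonds for the minus strand, and filled symbols for an adjusted p under 0.05. With Ento+AZD 10 tRNA rows and RNR2 are filled, and TRND is the highest at 1.67.

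Against Ento alone, Ento+AZD raised 9 of the 18 tRNA rows (8.27% of all genes were called higher), among them TRND (log2 fold change 0.96) and TRNL1 (0.51). Against AZD alone it raised 2 (5.85% of all genes), TRND with 0.85 (adjusted p = 0.0293) and TRNL1 with 0.32 (adjusted p = 0.0261). In neither comparison did a tRNA row fall, while 12.2% and 6.04% of all genes were called lower. The TRNL1 and TRND calls against AZD were both lost without AZD replicate 1, without AZD replicate 3 and without Ento+AZD replicate 1, and that of TRNL1 also without AZD replicate 2. No tRNA row was called in the interaction.

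The 4 tRNA rows that were not tested differed from the other 18 in their place among the rows. For each tRNA gene the positions were counted at which a 75-base read overlaps it and no other gene with a row in the table. There were no such positions for TRNV, TRNQ and TRNS2 and 3 for TRNA, and these 4 rows had at most 2, 3, 1 and 10 counts in any library. The other 18 tRNA rows had 22 to 144 positions and 38 to 5700 counts per library. Every 75-base read that overlaps TRNV also touches RNR1 or RNR2, as its sequence above shows at both ends. Whether reads that touch several genes were counted is not given in the sources used here. Among rows with 65 to 75 positions the mean counts still differed, from TRND at the low end to TRNL1 at the high end.

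**Figure D3:**
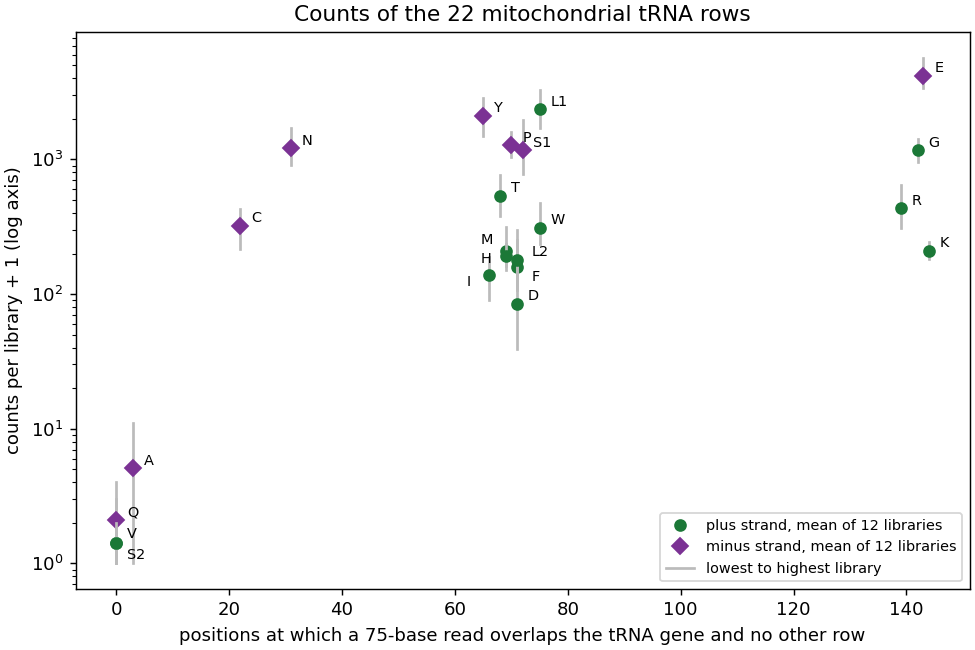
Counts per library plus 1 (log axis) of the 22 mitochondrial tRNA rows against the number of positions at which a 75-base read overlaps the tRNA gene and no other row of the table. Points are means of the 12 libraries and lines run from the lowest to the highest library. TRNV, TRNQ, TRNS2 and TRNA (labels V, Q, S2 and A) have 0 to 3 positions and at most 10 counts in any library.

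Both rRNA genes have nuclear copies, and identical stretches make the origin of a read uncertain. Of the 880 windows of 75 bases in RNR1, 250 (28.4%) occurred identically in the nuclear genome, at chr5:80651183-80651597, chr11:10509340-10509738 and chr13:109424125-109424343. In RNR2 50 of the 1410 windows without an undetermined base were shared (3.55%). They occurred at 61 nuclear positions, since 1 window can match several places. Of these positions 24 lay in MTRNR2L8, 28 in MTRNR2L12, which had no row, 3 in MTRNR2L9, 1 in MTRNR2L2 and 5 at chr7:45251997-45252075. What share of RNR1 reads was lost or placed elsewhere for this reason was not tested.

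The MTRNR2L genes are nuclear pseudogenes that resemble RNR2. MTRNR2L2, MTRNR2L8 and MTRNR2L9 matched RNR2 in 95.3%, 93.0% and 92.1% of the aligned bases, and MTRNR2L1 and MTRNR2L6 in 88.4% and 87.5%. After Ento+AZD exposure 6 of the 7 tested were called higher than with DMSO, with log2 fold changes of 0.80 (MTRNR2L6), 0.71 (MTRNR2L9), 0.65 (MTRNR2L2), 0.54 (MTRNR2L8), 0.54 (MTRNR2L10) and 0.51 (MTRNR2L1), beside 0.59 for RNR2 itself and 19.2% of all genes called higher. The call of MTRNR2L6 was lost without Ento+AZD replicate 1 (adjusted p = 0.0544), and that of MTRNR2L10 on leaving out any of 4 single libraries (adjusted p up to 0.103, without DMSO replicate 2). MTRNR2L3 had 0.48 and was not called (adjusted p = 0.451). Against Ento alone MTRNR2L1, MTRNR2L2 and MTRNR2L8 were called higher (8.27% of all genes), and against AZD alone the same 3 and MTRNR2L9 (5.85% of all genes). Each of these calls was lost on leaving out at least 1 single library. Each was also lost when the model had no term for the replicate number, with adjusted p-values of 0.169 to 0.321 against Ento and 0.318 to 0.377 against AZD. That model called 206 of the 16835 genes against Ento and 17 against AZD. Without the replicate number in the model, MTRNR2L2 and MTRNR2L8 were the copies still called for Ento+AZD against DMSO, where 2398 of the 16835 genes were called. With the replicate number in the model, no copy was called with AZD alone, beside 22.2% of all genes. With Ento alone only MTRNR2L8 was called higher (0.28, adjusted p = 0.0279), beside 4.66% of all genes. That call was lost on leaving out Ento replicate 1, 2 or 3 or DMSO replicate 2 or 3.

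MTRNR2L8, the copy row with the most counts, had 154.6, 175.9 and 146.4 CPM with DMSO and 226.0, 263.4 and 203.8 CPM with Ento+AZD, without overlap. Its log2 CPM correlated with that of RNR2 at 0.898 over the 12 libraries, those of MTRNR2L1 at 0.956 and of MTRNR2L2 at 0.878. The correlation was 0.764 for MTRNR2L10, 0.738 for MTRNR2L6, 0.422 for MTRNR2L9 and 0.218 for MTRNR2L3. MTRNR2L9 stood apart through replicate 1, with 1084, 430 and 469 counts with DMSO and 1425, 635 and 582 counts with Ento+AZD. Its call for Ento+AZD was lost with DESeq2 (adjusted p = 0.119, with 0.0556 for MTRNR2L10). In edgeR the call of MTRNR2L9 was lost on leaving out any of 4 single libraries (adjusted p up to 0.267, without Ento+AZD replicate 1).

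All MTRNR2L rows together had 13.6 ± 0.920 counts per 1000 RNR2 counts with DMSO, 14.1 ± 0.584 with Ento, 13.2 ± 0.20 with AZD and 13.6 ± 2.35 with Ento+AZD (SD, n = 3 each), so that the groups differed by less than the spread within Ento+AZD. Their counts were thus a small part of those of RNR2, and with them added to RNR2 none of its calls changed. Whether these rows hold reads of RNR2 or RNA of the nuclear copies was not tested.

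**Figure D4:**
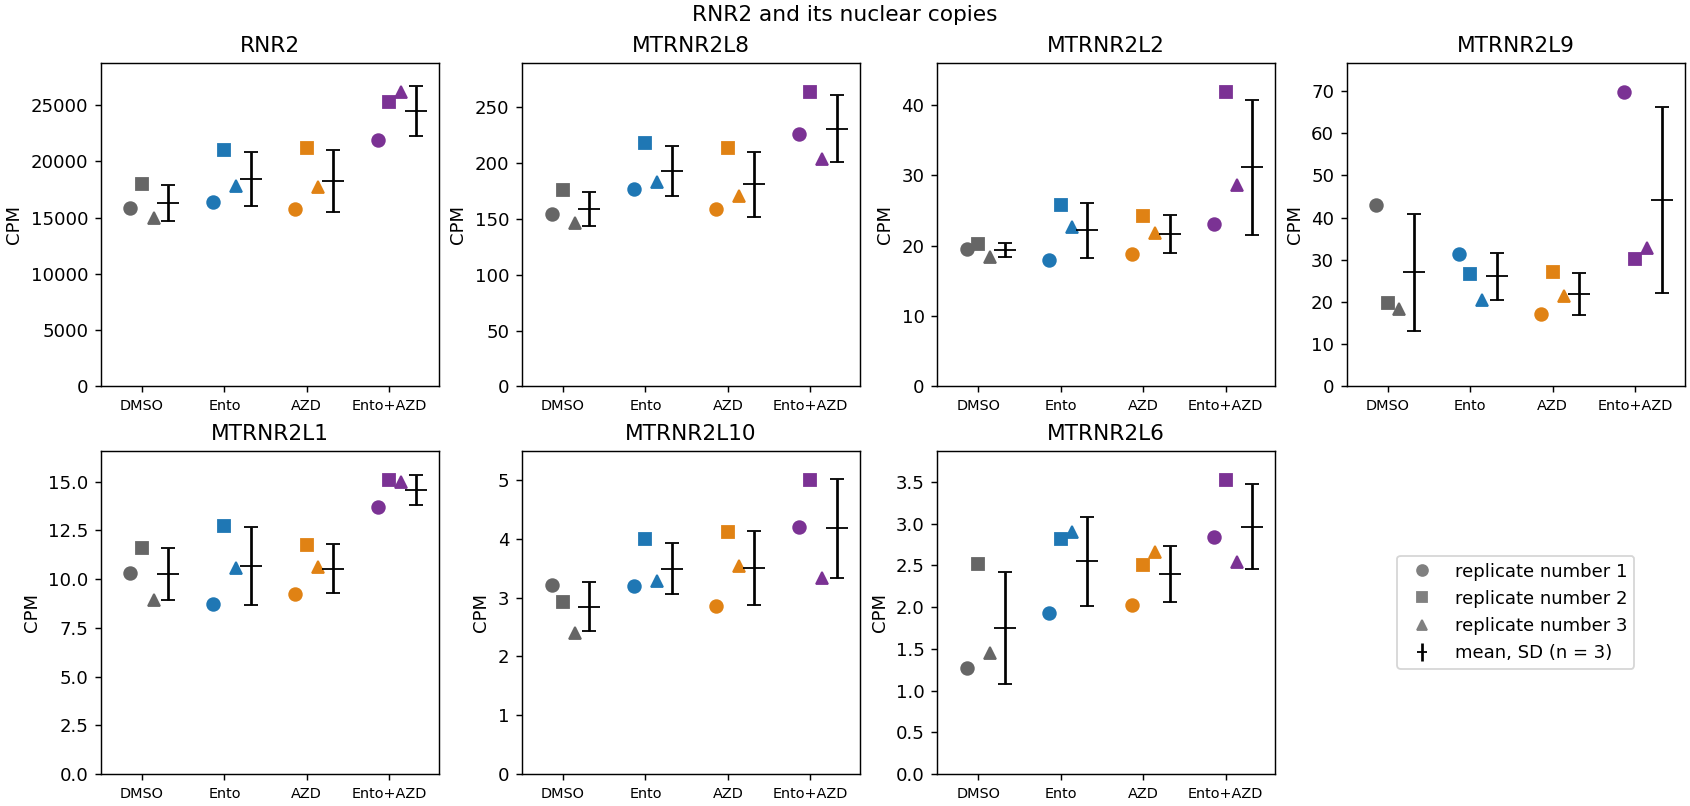
Level in CPM of RNR2 and of the 6 nuclear copies called higher with Ento+AZD than with DMSO, for each of the 12 libraries by exposure. Symbols mark the replicate number and the black bar the mean with its SD (n = 3). The Ento+AZD libraries of RNR2 and MTRNR2L8 lie above all DMSO libraries, and replicate 1 of MTRNR2L9 stands apart with both DMSO and Ento+AZD.

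Nuclear genes that act on mitochondrial RNA and DNA were described from lists of their known roles. None of the 10 tested genes of mitochondrial transcription was called with Ento+AZD against DMSO, beside 40.0% of all genes. Their median log2 fold change was 0.06, beside 0.01 over all genes. The polymerase POLRMT had 67.4 ± 7.64 CPM with DMSO and 73.6 ± 2.40 CPM with Ento+AZD (SD, n = 3 each, log2 fold change 0.13, adjusted p = 0.226), and TFAM 112.0 ± 0.954 and 113.0 ± 13.6 CPM (log2 fold change 0.01, adjusted p = 0.957). With AZD alone 2 of the 10 were higher, beside 9.57% of all genes, and TFB2M was 1 of them (0.36, adjusted p = 0.0425). With Ento alone none was called, beside 8.32% of all genes.

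Of 30 genes of mitochondrial RNA processing and stability, FASTK rose (log2 fold change 0.55, SE 0.09, adjusted p = 2.66e-04) and PRORP, the nuclease subunit of mitochondrial RNase P, which cuts the 5′ ends of tRNAs, fell (−0.35, SE 0.08, adjusted p = 0.00298) with Ento+AZD. These were the only calls among the 30, 1 higher and 1 lower, beside 19.2% and 20.8% of all genes. The median of the 30 was −0.01. LRPPRC had a log2 fold change of 0.02 (adjusted p = 0.860), SLIRP −0.15 (adjusted p = 0.376) and MTPAP −0.11 (adjusted p = 0.374). With AZD alone 7 of the 30 were higher and none lower, beside 9.57% and 12.7% of all genes. LRPPRC was among the 7 higher (0.21, adjusted p = 0.0493). With Ento alone none was called, beside 8.32% of all genes.

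Of 17 genes of mitochondrial DNA replication and repair 5 were higher and 3 lower with Ento+AZD, which is near the background of 40.0% of all genes called. MGME1, an exonuclease of mitochondrial DNA maintenance, rose by 0.58 and POLG2, the accessory subunit of the mitochondrial DNA polymerase, by 0.40 on the log2 scale. DNA2, a nuclease and helicase that also acts in the nucleus, fell by 0.98 and the ligase LIG3 fell by 0.29. Of 12 tested regulators of mitochondrial biogenesis 2 were higher (ESRRA 0.36 and PPARGC1B 0.32) and 2 lower (NRF1 −0.36 and GABPA −0.26). These too stand beside 19.2% of all genes called higher and 20.8% called lower. The calls of POLG2, LIG3, ESRRA, PPARGC1B and GABPA were each lost on leaving out at least 1 single library. With AZD alone 4 of the replication genes were higher and 1 lower, and of the biogenesis regulators 2 were higher and 1 lower. Of all genes 9.57% were called higher and 12.7% lower with AZD. With Ento alone 1 replication gene was higher, and no biogenesis regulator was called, beside 4.66% of all genes higher and 3.66% lower.

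The proteins that join RNR1 and RNR2 in the mitochondrial ribosome are nuclear-encoded. Of 78 tested 24 were lower and 5 higher with Ento+AZD, with a median of −0.11, where 20.8% of all genes were called lower and 19.2% higher. MRPL39 (−0.75) and MRPL11 (−0.68) fell most, and MRPS25 (0.51) and MRPL41 (0.41) rose most, the last without a call when Ento+AZD replicate 3 was left out. The number lower was 13 without DMSO replicate 2, 14 without Ento+AZD replicate 2 and 15 without Ento+AZD replicate 1. Leaving the replicate number out of the model gave 3, where 2398 of the 16835 genes were called in either direction. With AZD 7 were higher and 4 lower, beside 9.57% and 12.7% of all genes, and with Ento 1 each, beside 4.66% and 3.66%.

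Of 77 tested nuclear-encoded subunits of the respiratory chain and ATP synthase 17 were lower and 3 higher with Ento+AZD (median −0.05), where 20.8% of all genes were called lower and 19.2% higher, so that the number lower was near the background. In complex I NDUFC1 (−0.44) and NDUFB4 (−0.36) fell, and NDUFV3 (0.58) and NDUFB2 (0.30) rose. SDHA (−0.56) and SDHB (−0.20) of complex II, UQCRH (−0.36) and UQCRC1 (−0.22) of complex III and COX8A (−0.36) of complex IV fell. In the ATP synthase ATP5F1C (−0.34) and ATP5MC2 (−0.24) fell and ATP5F1E (0.31) rose. The calls of NDUFB2, SDHB, UQCRC1, COX8A, ATP5MC2 and ATP5F1E were each lost on leaving out at least 1 single library. The number lower ranged from 8, without DMSO replicate 2 or without Ento+AZD replicate 2, to 26 without DMSO replicate 3. It was 9 without Ento+AZD replicate 3 and 11 without DMSO replicate 1. When the replicate number was left out of the model it was 1, where 2398 of the 16835 genes were called in either direction. With AZD 8 were higher and 2 lower, beside 9.57% and 12.7% of all genes. With Ento none was called, beside 8.32% of all genes.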

How the data were processed

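The authors isolated RNA with QIAzol, enriched polyadenylated RNA, prepared NEBNext Ultra II libraries and sequenced single 75-base reads. Reads were demultiplexed with bcl2fastq 2.19 per the submitters' processing notes, trimmed with CutAdapt and TrimGalore, aligned to GRCh38.p13 and counted per gene with Rsubread. The processing notes also name hg19, without a role, so that the mitochondrial reference used is not certain. Strand use, treatment of reads matching several genes and annotation release are not given in the sources used here. The deposited counts are raw whole numbers per gene symbol. The authors also deposited log2 values for 16226 genes. These matched log2 CPM computed by edgeR at a prior count of 2 with library totals recomputed over these genes (largest difference 5e-09, or 0.0113 with the totals of all genes), had rows for the same 2 rRNA and 18 tRNA genes, and were used only for this check.

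Counts were analysed with edgeR 4.0.16 in R 4.3.3, filtered by filterByExpr (minimum count 10, minimum total 15), normalized by TMM, and fitted with treatment group and replicate number as terms. Contrasts were tested by quasi-likelihood with Benjamini-Hochberg adjustment. Called means an adjusted p under 0.05, and DEGs in addition had an absolute log2 fold change over 1. Standard errors are the log2 fold change divided by the root of F. Replicate numbers, taken from the sample titles, pair the libraries. Deviations from group means correlated at 0.213 to 0.703 in 18 same-number pairs and at −0.627 to 0.325 in 36 others. Within each group, libraries differed beyond sampling noise (chi-square per degree of freedom 8.64 to 52.0). In simulated counts for Ento+AZD against DMSO, recovery was 31 of 67 genes at a true log2 change of 0.5, 48 of 66 at 1 and 64 of 65 at 2, and 5 of 16378 unchanged genes were called. The simulation changed few genes and assumed the size of the replicate effect, whereas 40.0% of the genes were called in the data. It was a check of the fit, and its recovery is not the power in the real comparison.

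The members, lists and tests were chosen with earlier results of these data known. Genes named are the rRNA, tRNA and MTRNR2L rows, the 2 largest called changes in each direction of each nuclear list with Ento+AZD, and the 5 genes most like the members. The last part was meant for the mRNA members, which were not analysed here, and was applied to RNR2 after the rows were seen. POLRMT, TFAM, TFB2M, MTERF1, LRPPRC, SLIRP and MTPAP were named for their known roles. Coordinates and sequences are from GENCODE v44 on GRCh38. Copies were found as identical windows and with BLAST 2.17.0, taking MTRNR2L genes from RefSeq (GRCh38.p14, coordinates not printed). Alternatives were the model without the replicate number, DESeq2 1.42.0, other scalings, no filter, robust dispersion and each library left out.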

Additional observations from a re-analysis of the deposited data

How the results depend on the processing

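The call of RNR2 for Ento+AZD against DMSO held under every alternative tried, with a log2 fold change of 0.50 to 0.66 and an adjusted p of at most 0.0200, reached without the replicate block. The model without the replicate block left 36 genes called with Ento, 326 with AZD and 2398 with Ento+AZD against DMSO. For Ento+AZD it left 206 called against Ento and 17 against AZD, of the 16835 tested. The number of rRNA genes called in that model was 0 for Ento+AZD against Ento and 0 against AZD. That of tRNA rows was 0 with Ento, 0 with AZD, 3 with Ento+AZD, and 0 for Ento+AZD against either single agent. Without the filter on low counts, 1 rRNA gene was called with Ento, 2 with AZD (RNR1 lower, RNR2 higher) and 2 for Ento+AZD against AZD, and 2 tRNA rows with Ento. The cause was not tested. With 1 library left out, 0 to 1 rRNA genes were called for Ento+AZD against Ento and 0 to 1 against AZD. The tRNA rows called numbered 0 to 1 with Ento, 1 to 9 with AZD, 10 to 12 with Ento+AZD, 4 to 9 for Ento+AZD against Ento (4 without Ento replicate 3, 5 without Ento or Ento+AZD replicate 1) and 0 to 3 against AZD (0 without AZD replicate 1 or 3 or Ento+AZD replicate 1). The mean share of both rRNAs with 1 library left out was 1.75% to 1.87% with DMSO, 1.86% to 2.09% with Ento, 1.79% to 2.04% with AZD and 2.49% to 2.72% with Ento+AZD. The sign of RNR1 turned in 5 cases. With Ento its log2 fold change ran from −0.19 to 0.0116 when 1 library was left out, positive without DMSO replicate 1. With Ento+AZD against DMSO it was −5.02e-04 with library totals as the only scaling, and −0.0593 to 0.19 with 1 library left out, negative without DMSO replicate 2 and without Ento+AZD replicate 2 (−0.01) or 3 (−0.02). No scaling moved the median of all genes by more than 0.1 on the log2 scale. Whether changes as small as those of RNR2 are recovered at its count level was not tested. The counts of tRNA rows such as TRND limit their precision.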
